A study of Homo sapiens with 6 samples.

Results

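The aldo-keto reductases are a family of cytosolic enzymes, and 7 of them, AKR1A1, AKR1B1, AKR1B10, AKR1C1, AKR1C2, AKR1C3 and AKR7A2, are described here out of the 12982 genes measured. The genes were chosen by symbol, and with their response to MPM-1 in these libraries already known. Their change between treatments is therefore given as a description, with its error and without a test. SW480 cells, an established line grown from a human colon adenocarcinoma, were treated for 24 h with the solvent DMSO or with MPM-1, a fluorescent small molecule that accumulates in mitochondria and that the sample labels also call WT4. RNA was sequenced from 3 libraries per treatment. Both groups were the same unmodified line, which stands for 1 tumour, and the sources used here give no dose of MPM-1 for the sequencing and do not say whether the libraries of a treatment came from separate cultures. A p-value therefore measures the spread between these libraries, which may be technical.

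Aldo-keto reductases use NADPH to turn aldehydes and ketones into alcohols. The substrates include sugars, lipid peroxidation products, steroids, prostaglandins and many drugs. The AKR1C enzymes reduce steroid and prostaglandin ketones, AKR1B1 (aldose reductase) turns glucose into sorbitol, AKR1B10 reduces retinal and dietary or lipid-derived aldehydes in the gut, AKR1A1 (aldehyde reductase) handles glucuronate and other charged aldehydes, and AKR7A2 reduces succinic semialdehyde and aflatoxin dialdehyde. Several of the genes are known targets of NRF2, the transcription factor that answers electrophilic and oxidative stress through the antioxidant response element.

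The libraries held 31733667 to 40269820 counts, with the DMSO libraries at 32095456 to 40269820 and the MPM-1 libraries at 31733667 to 35403841. Every gene in the table had at least 115 counts over the 6 libraries. All 8 epithelial markers looked for were listed. In DMSO, KRT8 stood at 4096 ± 379 CPM (SD, n = 3), KRT18 at 1874 ± 112 CPM and KRT19 at 1644 ± 244 CPM. CPM are counts relative to library size, with the sizes scaled between libraries by TMM. The intestinal factor CDX2 fell from 82.5 ± 3.51 to 17.9 ± 4.33 CPM with MPM-1 (log2 fold change −2.20, SE 0.16, edgeR quasi-likelihood adjusted p = 5.29e-06). Most of the other epithelial markers went the other way. At an edgeR adjusted p under 0.05 with any fold, 5 of the 8 were higher and 2 lower. The shares of all genes were 27.7% and 28.8%. KRT8, KRT18 and KRT19 had log2 fold changes of 0.42, 0.89 and 0.89, and the median of the 8 was 0.46. Of the markers of immune, endothelial, stromal and liver cells reported here, 2 were listed, CD68 at 68.3 ± 15.5 CPM in DMSO and 145 ± 8.62 CPM in MPM-1, and COL1A1 at 2.97 ± 0.341 and 0.705 ± 0.503 CPM. The part that these markers have in the results on the aldo-keto reductases was not tested. PTPRC, CD3E, PECAM1, VWF, COL3A1, DCN and ALB were not among the genes analysed here. The libraries came from cultures of the SW480 line, so these genes are not used here to measure a share of other cell types. In such bulk samples fewer cells expressing a gene and less RNA per cell cannot be told apart.

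The 3 AKR1C genes lie side by side on chromosome 10 (GRCh38), AKR1C1 at chr10:4963253-4983283 on the plus strand, AKR1C2 at chr10:4987400-5018031 on the minus strand and AKR1C3 at chr10:5035354-5107686 on the plus strand. The coding sequences of AKR1C1 and AKR1C2 were 98.0% identical, and those of AKR1C1 and AKR1C3 91.7%. The likeness reached into the promoter windows used here. The 250 bases before the RefSeq start (GRCh38.p14) of AKR1C1, chr10:4963165-4963414 on the plus strand, and of AKR1C2, chr10:5003858-5004107 on the minus strand, shared an unbroken run of 245 identical bases. Both are shown because these were the members with the highest fold changes, and the window of AKR7A2, chr1:19312147-19312396 on the minus strand, because that member was the most reduced. Capitals mark each match to 1 of 2 forms of the antioxidant response element core, TGACNNNGC or TGAGNNNGC, on either strand.
AKR1C1: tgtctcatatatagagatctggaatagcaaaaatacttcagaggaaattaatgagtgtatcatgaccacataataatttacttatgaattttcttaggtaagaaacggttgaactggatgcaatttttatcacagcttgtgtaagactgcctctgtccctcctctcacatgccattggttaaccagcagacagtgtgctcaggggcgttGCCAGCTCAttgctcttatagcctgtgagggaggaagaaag
AKR1C2: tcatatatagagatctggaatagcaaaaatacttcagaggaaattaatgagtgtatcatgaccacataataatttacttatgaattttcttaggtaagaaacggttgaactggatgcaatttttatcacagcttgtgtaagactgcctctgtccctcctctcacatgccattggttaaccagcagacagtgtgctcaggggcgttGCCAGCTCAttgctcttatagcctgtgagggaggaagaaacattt
AKR7A2: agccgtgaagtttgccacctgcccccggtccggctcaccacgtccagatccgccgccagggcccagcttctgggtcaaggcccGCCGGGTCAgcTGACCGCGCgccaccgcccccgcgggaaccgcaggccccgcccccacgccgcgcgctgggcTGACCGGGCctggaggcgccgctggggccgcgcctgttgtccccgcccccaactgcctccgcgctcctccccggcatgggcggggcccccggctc

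The windows of AKR1C1 and AKR1C2 each held the same single match to TGAGNNNGC, a pattern found in 14.8% of all 35116 promoter windows of that length. AKR7A2 held 3 matches to TGACNNNGC. Windows with at least 1 match to this pattern made up 10.9% of all, and the share with 3 was not counted. The AKR7A2 window shown was 78.8% G or C, against 40.8% for that of AKR1C1. The forms differ in a base, so no match counted for both. The 2 AKR1C3 windows were 72.4% and 69.9% identical to that of AKR1C1 and held no match, nor did the windows of AKR1A1 and AKR1B1. In the 9 windows of the 6 members with an entry, neither TGACTCA (an AP-1 site) nor TGATGNAAT (a C/EBP-ATF element, in 0.888% of all windows) was present. A match is a run of letters and was not tested for binding.

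AKR1C1, a 20-alpha-hydroxysteroid dehydrogenase that inactivates progesterone, had the highest fold change of the family. Its counts were 4903, 5909 and 5774 in the DMSO libraries and 17810, 24767 and 22607 in the MPM-1 libraries, in the order of replicates 1, 2 and 3. Scaled by library, these were 149, 137 and 145 CPM with DMSO and 585, 805 and 673 CPM with MPM-1. The groups were far apart, and the lowest MPM-1 library stood above every DMSO library. The means were 143 ± 6.06 and 688 ± 111 CPM (SD, n = 3), a 4.79-fold difference (log2 fold change 2.26, SE 0.11). MPM-1 replicate 2 was the highest library, and without it the log2 fold change was 2.16.

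AKR1C2, a 3-alpha-hydroxysteroid dehydrogenase that reduces dihydrotestosterone, differed in the same direction by a smaller factor. It was measured at 13.1, 12.9 and 16.0 CPM with DMSO and at 25.6, 35.1 and 30.3 CPM with MPM-1. All MPM-1 libraries were above all DMSO libraries, and the mean went from 14.0 ± 1.75 to 30.3 ± 4.71 CPM, 2.17-fold (log2 fold change 1.12, SE 0.14). The size of this difference lay near the 2-fold mark: it was 0.97 on the log2 scale with scaling by library size alone and 0.89 on log2(FPKM + 1), so that AKR1C2 then no longer counted as changed at least 2-fold.

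Some reads of AKR1C1 and AKR1C2 cannot be told apart by their sequence. For each gene the longest annotated protein-coding transcript was used (GENCODE 29). In that of AKR1C2, 1136 of the 3657 stretches of 100 bases occurred letter for letter in AKR1C1, and 32.9% occurred in some other gene. For AKR1C1 this share was 17.4%, over a transcript of 6705 bases with 5544 after the coding sequence. Which transcript forms the cells expressed was not tested, and the share in a shorter form was not counted. How such reads were assigned is not given in the sources used here, so the split between both genes is uncertain. Their sum does not depend on this split, but would lack any reads left out for matching more than 1 gene. Together they stood at 162, 150 and 161 CPM with DMSO and at 610, 840 and 704 CPM with MPM-1. The summed mean was 157 ± 6.71 against 718 ± 116 CPM, a log2 fold change of 2.19 (SE 0.11). The ratio of AKR1C1 to AKR1C2 counts was 10.3 ± 1.19 with DMSO and 22.7 ± 0.403 with MPM-1, with no overlap between the groups.

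AKR1C3, which makes testosterone from androstenedione and prostaglandin F2 from prostaglandin D2 and H2, differed least of the 3 AKR1C genes. It stood at 67.7, 72.8 and 76.2 CPM with DMSO and at 84.3, 110 and 93.0 CPM with MPM-1. The means were 72.2 ± 4.24 and 95.8 ± 13.2 CPM, 1.33-fold (log2 fold change 0.41, SE 0.10). The libraries did not overlap in CPM. In FPKM (fragments scaled for transcript length and library depth), they did, since the highest DMSO library had 43.4 and the lowest MPM-1 library 42.0. Few of its transcript stretches, 4.98%, were shared with another gene. The order AKR1C1, AKR1C2, AKR1C3 by fold change is also their order along the chromosome.

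**Figure D1:**
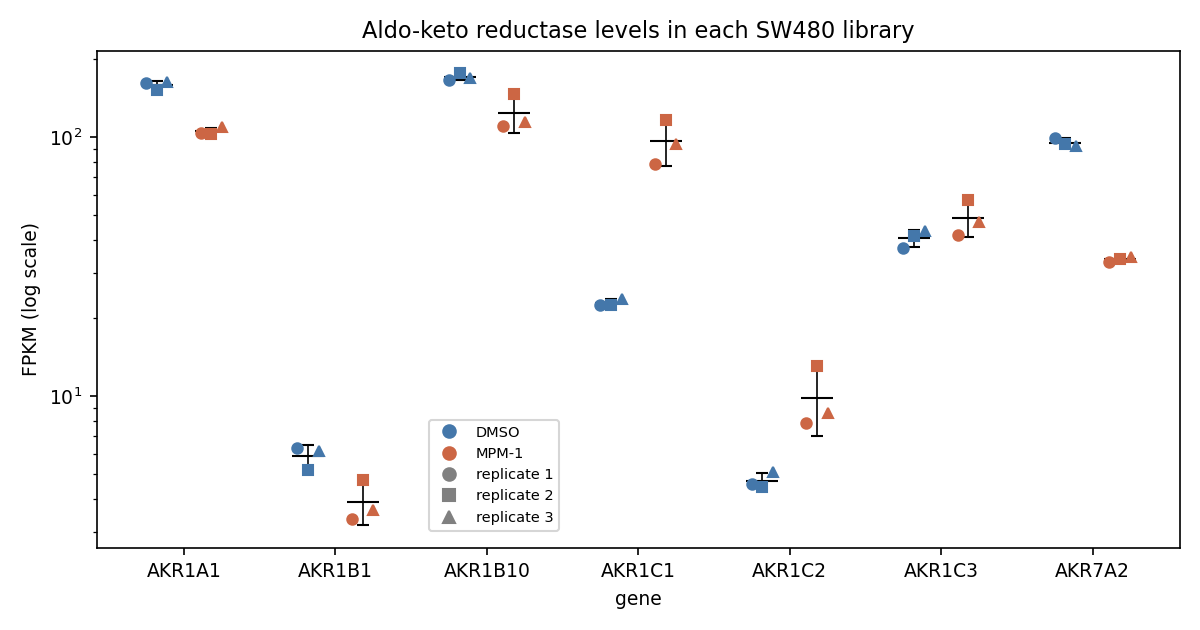
FPKM on a log axis for each of the 7 genes in each library, DMSO in blue and MPM-1 in orange, with the mean (bar) and SD (whiskers) of 3 libraries and 1 marker shape per replicate number. AKR1C1 stood at 22.4 to 23.8 FPKM with DMSO and at 79.0 to 116 with MPM-1, and AKR7A2 moved the other way, from 92.0 to 99.6 down to 32.8 to 34.5.

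The AKR1B genes sit together on chromosome 7, AKR1B1 at chr7:134442350-134459284 on the minus strand and AKR1B10 at chr7:134527592-134541408 on the plus strand. Both were slightly lower with MPM-1. AKR1B10 was measured at 265, 271 and 261 CPM with DMSO and at 194, 249 and 197 CPM with MPM-1. MPM-1 replicate 2 lay close to the DMSO libraries while replicates 1 and 3 lay lower, and the means were 266 ± 5.15 and 213 ± 30.6 CPM (log2 fold change −0.32, SE 0.10). AKR1B1 was a low gene, at 9.82, 8.27 and 9.41 CPM with DMSO and 6.11, 7.97 and 6.64 CPM with MPM-1. Its highest MPM-1 library lay just under its lowest DMSO library, and the log2 fold change was −0.41 with an SE of 0.17. Per length, AKR1B10 exceeded AKR1B1 by 29.2 ± 4.06 times with DMSO and 31.6 ± 0.968 times with MPM-1, ranges that overlapped, although their coding sequences were 76.5% identical.

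AKR1A1, alone in its part of chromosome 1 at chr1:45550543-45570049 on the plus strand, was lower by a similar amount and with little spread. The libraries stood at 230, 210 and 225 CPM with DMSO and at 166, 178 and 174 CPM with MPM-1. The groups were separate, with means of 222 ± 10.1 and 173 ± 6.24 CPM (log2 fold change −0.36, SE 0.07). No stretch of 100 bases of its transcript occurred in another gene, and the same held for AKR1B1.

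AKR7A2, at chr1:19303965-19312146 on the minus strand, was the member most reduced. It was measured at 136, 124 and 121 CPM with DMSO and at 48.9, 49.2 and 51.3 CPM with MPM-1. The 3 MPM-1 libraries were nearly equal, and their mean of 49.8 ± 1.32 CPM was 39.2% of the DMSO mean of 127 ± 7.70 CPM (log2 fold change −1.35, SE 0.08). Of its transcript stretches, 0.396% occurred in another gene.

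Counted by the rule applied to all genes (edgeR quasi-likelihood adjusted p under 0.01 and a change of at least 2-fold), 2 members, AKR1C1 and AKR1C2, were called higher, beside 5.58% of all genes, and 1 member, AKR7A2, was called lower, beside 8.75% of all genes. At an adjusted p under 0.05 with any fold, 3 members were higher, beside 27.7% of all genes, and 3 were lower, beside 28.8%, AKR1B1 being the one left over. Libraries of the treatments did not overlap in CPM for any of the 7, beside 64.3% of all genes. As the members were selected on this contrast, these counts are a description only. The median log2 fold change was −0.32 over the members and −0.03 over all genes. In 6 of the 7, all but AKR7A2, the highest MPM-1 value in CPM was in replicate 2, and in FPKM this held for 5.

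Scaled by length, AKR1B10 was the most abundant member under both treatments, with 170 ± 5.11 FPKM in DMSO and 123 ± 20.1 FPKM in MPM-1. In the DMSO libraries it was followed by AKR1A1 with 159 ± 5.78 FPKM, AKR7A2 with 95.2 ± 3.91 FPKM, AKR1C3 with 40.8 ± 3.09 FPKM, AKR1C1 with 22.9 ± 0.788 FPKM, AKR1B1 with 5.89 ± 0.601 FPKM and AKR1C2 with 4.72 ± 0.344 FPKM. No neighbours in this order overlapped between libraries. With MPM-1 the order changed. AKR1A1 had 105 ± 3.59 FPKM and AKR1C1, next in order, 96.2 ± 18.7 FPKM, and these neighbours overlapped. AKR1C3 with 48.8 ± 7.69 FPKM came before AKR7A2 with 33.7 ± 0.857 FPKM, and AKR1C2 with 9.85 ± 2.80 FPKM before AKR1B1 with 3.91 ± 0.733 FPKM. In CPM, which is not scaled by length, AKR1B10 was highest with DMSO at 266. With MPM-1, AKR1C1 was highest at 688 CPM, against 213 CPM for AKR1B10. The transcript length behind the FPKM of AKR1C1 was not checked.

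The make-up of the family therefore differed between treatments. The AKR1C genes held 12.9%, 13.8% and 14.4% of the summed FPKM of the 7 members in the DMSO libraries and 34.0%, 39.3% and 36.4% in the MPM-1 libraries. The mean share was 13.7 ± 0.726% with DMSO and 36.6 ± 2.63% with MPM-1. AKR1C1 alone went from 4.59 ± 0.128% to 22.7 ± 1.81% of the sum, and AKR7A2 from 19.1 ± 0.854% to 8.07 ± 0.824%. Within the AKR1C genes, the ratio of AKR1C1 to AKR1C3 in FPKM was 0.562 ± 0.0336 with DMSO and 1.97 ± 0.0777 with MPM-1. Their order was thus inverted in FPKM only. In CPM, AKR1C1 stood above AKR1C3 under both treatments, at 143 against 72.2 with DMSO and 688 against 95.8 with MPM-1. The share of the AKR1C genes in summed CPM was 26.9 ± 0.746% with DMSO and 64.6 ± 1.86% with MPM-1.

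Whether the family as a whole was higher or lower depended on the scale. Summed FPKM was 499 ± 3.24 with DMSO and 421 ± 48.5 with MPM-1, so lower, while summed CPM was 853 ± 16.8 with DMSO and 1256 ± 165 with MPM-1, so higher. In both cases the libraries did not overlap. AKR1C1 weighs more in CPM, since 1 FPKM of AKR1C1 corresponded to 213 to 264 counts and 1 FPKM of AKR7A2 to 44.8 to 56.9 counts. CPM also carried the TMM scaling between libraries, which the FPKM values did not use. The part of each in the difference between the sums was not tested. No direction is given for the family as a whole.

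**Figure D2:**
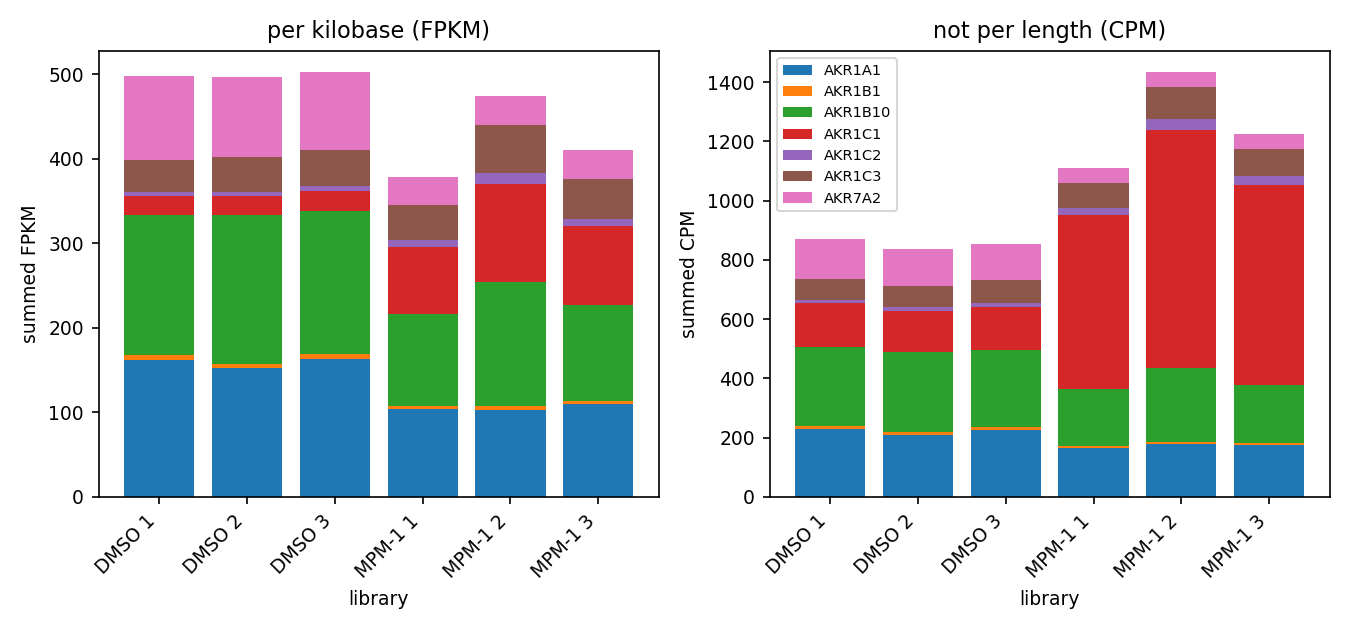
Stacked bars of the 7 genes in each library, in summed FPKM (left) and summed CPM (right), both from 0. The AKR1C1 segment widened with MPM-1 on both scales, while the whole bar stood below the DMSO bars in FPKM (378 to 474 against 496 to 503) and stood above them in CPM (1109 to 1434 against 836 to 870).

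Of 13 other genes of the superfamily looked for, 5 were in the table. The closest relatives of AKR7A2 lie next to it on chromosome 1 and fell as well. AKR7A3, a second aflatoxin aldehyde reductase at chr1:19282558-19289250, stood at 28.2, 27.2 and 28.6 CPM with DMSO and 6.96, 7.19 and 5.72 CPM with MPM-1 (log2 fold change −2.08, SE 0.13, edgeR adjusted p = 2.42e-06). AKR7L, annotated as a polymorphic pseudogene at chr1:19265982-19274194, stood at 6.73, 6.78 and 7.48 CPM with DMSO and 1.54, 2.60 and 2.47 CPM with MPM-1 (log2 fold change −1.66, SE 0.24, edgeR adjusted p = 3.07e-04). Of the 1141 stretches of 100 bases in AKR7L, 184 occurred in AKR7A3, so reads may be split between these genes. The ratio of AKR7A2 to AKR7A3 in FPKM was 5.71 ± 0.360 with DMSO and 9.61 ± 1.45 with MPM-1.

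KCNAB2, a beta subunit of potassium channels with an aldo-keto reductase fold, fell slightly from 31.0 ± 0.672 to 22.7 ± 0.223 CPM (log2 fold change −0.45, edgeR adjusted p = 0.00156). Neither AKR1B15, the neighbour of AKR1B10, passed the test (log2 fold change −0.25, SE 0.18, edgeR adjusted p = 0.263), nor did KCNAB1 (log2 fold change −0.22, SE 0.32, edgeR adjusted p = 0.583). By position, the 3 genes measured in the AKR1C cluster had values above DMSO, the 3 in the AKR1B cluster and the 3 in the AKR7 cluster had values below it, whether or not they passed the test, and the direction within a cluster was the same in each of the 15 settings tried.

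**Figure D3:**
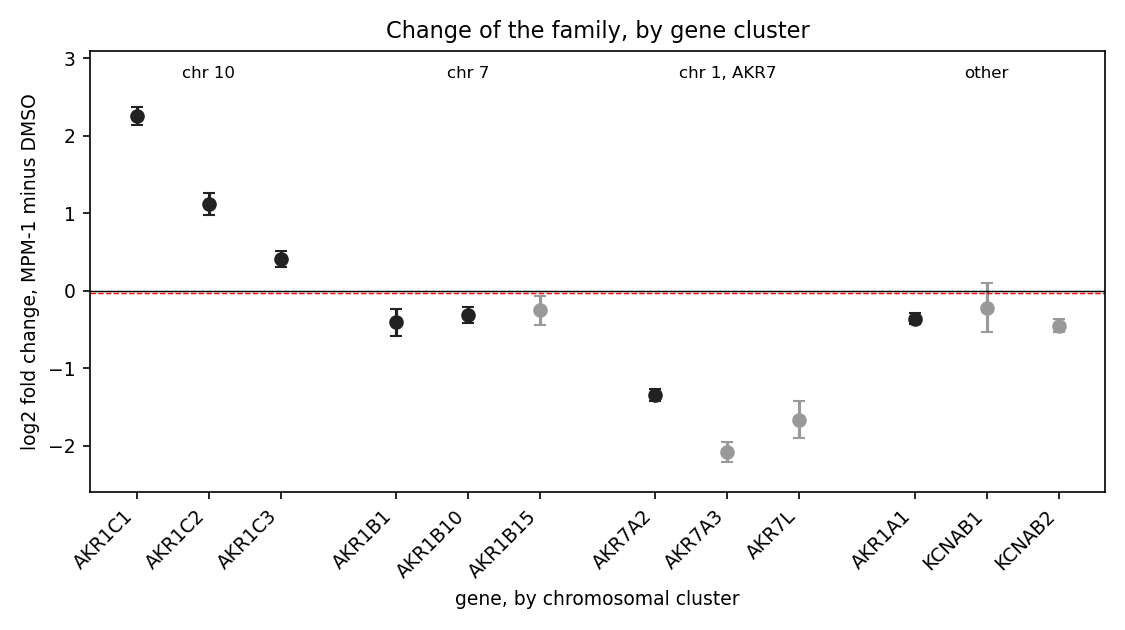
Log2 fold change of MPM-1 minus DMSO with its SE for the 7 members (black) and the 5 other superfamily genes (grey), grouped by chromosomal cluster. The dashed line is the median of all 12982 genes (−0.03). AKR1C1, AKR1C2 and AKR1C3 stood at 2.26, 1.12 and 0.41, and AKR7A2, AKR7A3 and AKR7L at −1.35, −2.08 and −1.66.

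Genes around the family in metabolism were described by lists, which together held 117 distinct genes in the table. Of these, 14 were called higher and 17 lower, beside 5.58% and 8.75% of all genes, the shares against which each list's calls below are to be read. At any fold the shares of all genes were 27.7% higher and 28.8% lower, and the median of all genes was −0.03. Short-chain and related carbonyl reductases, which act on the same kinds of substrate, had 20 genes measured, of which 4 were called higher and 2 lower. PTGR1, which inactivates leukotriene B4 and reduces the double bond of reactive enones, rose from 40.3 ± 0.619 to 177 ± 22.7 CPM (log2 fold change 2.13, SE 0.10, edgeR adjusted p = 5.67e-07). TP53I3, a quinone oxidoreductase induced by p53, rose by 1.93 on the log2 scale, and DHRS7 rose by 1.25. The part of p53 in this rise of TP53I3 was not tested. DHRS3, named after its values were seen, had a log2 fold change of 1.02 and lost its call without any 1 of 4 libraries, DMSO replicates 2 and 3 and MPM-1 replicates 2 and 3 (0.87 to 0.99). CBR4 and SPR, which makes tetrahydrobiopterin, fell by 1.14 and 1.04 on the log2 scale, and SPR lost its call without DMSO replicate 1 (−0.99) or MPM-1 replicate 1 (−0.91). The median of the list was −0.29.

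Aldehyde dehydrogenases oxidise the aldehydes that aldo-keto reductases reduce. Of 15 measured, none was called higher and 4 were called lower, beside 5.58% and 8.75% of all genes. At any fold 3 were higher and 8 lower, beside 27.7% and 28.8% of all genes, with a median of −0.49. ALDH1A1, which makes retinoic acid from the retinal that AKR1B10 reduces, fell from 8.30 ± 0.759 to 2.32 ± 0.674 CPM (log2 fold change −1.84, SE 0.25, edgeR adjusted p = 2.00e-04). ALDH1B1 fell by 1.58 on the log2 scale, and ALDH5A1, which oxidises the succinic semialdehyde that AKR7A2 reduces, fell by 1.29. The remaining called gene, ALDH4A1, named after its values were seen, had a log2 fold change of −1.27. ALDH3A1, named after its values were seen as the one that came closest to a call in the other direction, went from 236 ± 9.59 to 462 ± 47.2 CPM (log2 fold change 0.97, SE 0.09, edgeR adjusted p = 1.96e-05).

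The polyol pathway and methylglyoxal list had 10 genes, with none called higher and 1 lower. KHK, fructokinase, fell from 10.7 ± 2.23 to 4.17 ± 0.838 CPM (log2 fold change −1.36, SE 0.22, edgeR adjusted p = 6.50e-04), while the list median was −0.14. Steroid and retinoid conversion had 26 genes, with 1 called higher and 3 lower, counts close to the shares of 5.58% and 8.75% over all genes, and a median of −0.05. HSD11B2, which turns cortisol into cortisone, fell from 7.34 ± 0.671 to 1.88 ± 0.188 CPM (log2 fold change −1.96, edgeR adjusted p = 4.24e-05), and HSD11B1L had a log2 fold change of −1.55, which lost its call without DMSO replicate 1 (−1.51) or 2 (−1.50). RDH16, a retinol dehydrogenase, at 0.648 CPM with DMSO and 1.74 CPM with MPM-1 (log2 fold change 1.44), and HSD17B13, at 1.42 and 0.546 CPM (log2 fold change −1.37), rested on few counts. The call for RDH16 was lost without DMSO replicate 2 (1.26) or 3 (1.36) or MPM-1 replicate 1 (1.35) or 2 (1.36), and that for HSD17B13 without any 1 library (−1.51 to −1.17).

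Prostaglandin synthesis and breakdown had 13 genes, of which 1, PTGR1, was called higher and 4 lower, with a median of −0.32. PTGS1, a cyclooxygenase at the start of the pathway, fell from 14.3 ± 1.84 to 2.62 ± 0.726 CPM (log2 fold change −2.45, SE 0.23, edgeR adjusted p = 2.35e-05). PTGS2, the other cyclooxygenase on the list, was named after its values were seen. It stood at 6.11 ± 1.04 and 4.90 ± 0.812 CPM and did not pass (log2 fold change −0.32, SE 0.21, edgeR adjusted p = 0.223). PTGES, which makes prostaglandin E2, fell by 1.45 on the log2 scale, and HPGD, which inactivates it, fell by 1.15. The call for HPGD was lost without MPM-1 replicate 1, where the log2 fold change was −0.94. The same library, and DMSO replicate 2, decided the call for PLA2G4A, which frees arachidonic acid and was named after its values were seen (log2 fold change −1.03, and −0.88 and −0.96 without them).

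NADPH, the cofactor of the family, comes from several dehydrogenases. Of 16 genes on this list, 2 were called higher and 1 lower, and at any fold 10 were higher and 2 lower, with a median of 0.33. Cytosolic malic enzyme ME1 rose from 113 ± 7.19 to 302 ± 23.2 CPM (log2 fold change 1.42, SE 0.09, edgeR adjusted p = 2.16e-06). Cytosolic IDH1 rose from 256 ± 22.1 to 682 ± 40.6 CPM (log2 fold change 1.41, SE 0.09, edgeR adjusted p = 2.16e-06), whereas its mitochondrial relative IDH2 fell from 97.5 ± 3.76 to 47.1 ± 1.72 CPM (log2 fold change −1.05, SE 0.07, edgeR adjusted p = 4.87e-06).

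NRF2 regulators and classical targets had 17 genes, of which 7 were called higher and none lower, and at any fold 14 were higher and 1 lower. The median was 0.92, the highest of the lists. MAFF, a small MAF partner of NRF2, rose 3.92-fold to 133 ± 23.9 CPM (log2 fold change 1.97, SE 0.18, edgeR adjusted p = 1.95e-05). SQSTM1, which binds KEAP1, rose from 1205 ± 127 to 4564 ± 425 CPM (log2 fold change 1.92, SE 0.09, edgeR adjusted p = 6.58e-07). SLC7A11, the cystine transporter, rose by 1.74 on the log2 scale. NQO1, named after its values were seen for its level, stood at 2648 ± 149 and 5311 ± 284 CPM (log2 fold change 1.00), at the edge of the 2-fold mark and below it without DMSO replicate 1 (0.96) or MPM-1 replicate 2 (0.98), and HMOX1, another gene named in this way, had a log2 fold change of 0.01 (SE 0.15, edgeR adjusted p = 0.946). Of other called genes of this list, named because 1 library decided their call, MAFK lost its call when DMSO replicate 2 was left out (0.90), and likewise for DMSO replicate 3 (0.92) and for MPM-1 replicate 3 (0.92), and OSGIN1 without any 1 of the DMSO replicates (0.98 to 1.07) or MPM-1 replicate 1 (0.58). The 1 gene lower at any fold was KEAP1, the repressor of NRF2 (log2 fold change −0.56, SE 0.08, edgeR adjusted p = 2.63e-04).

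**Figure D4:**
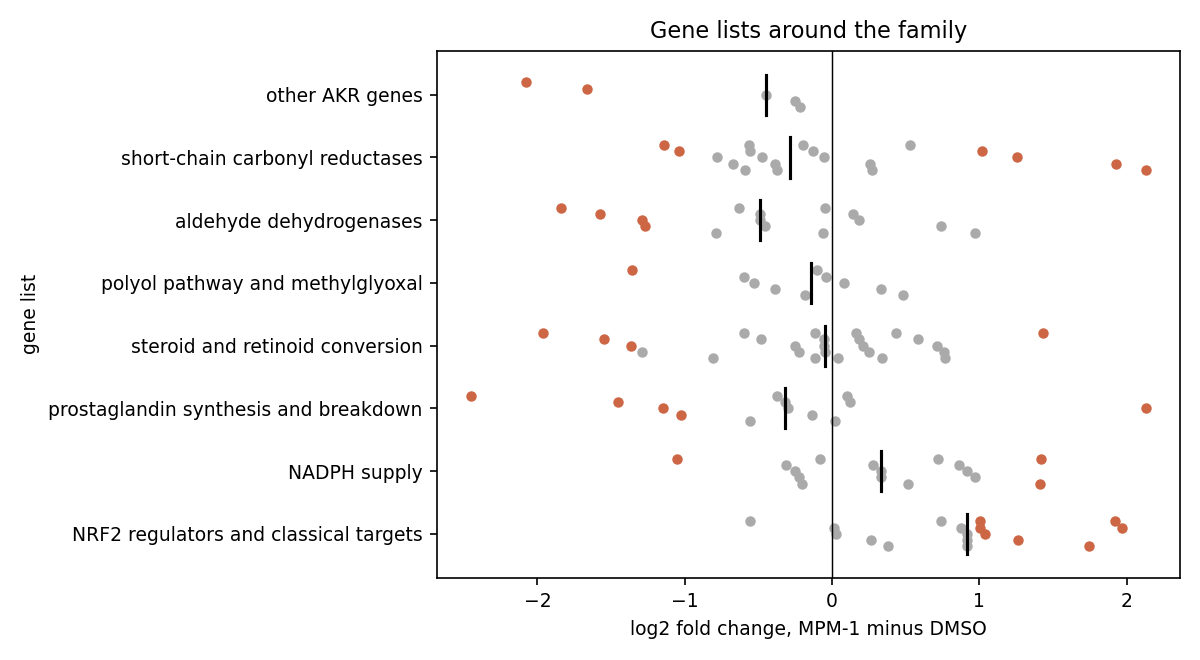
Log2 fold change of MPM-1 minus DMSO for each measured gene (point) of 8 lists around the family, with called genes in orange, other genes in grey and the list median as a black bar. Medians ran from −0.49 for the aldehyde dehydrogenases to 0.92 for the NRF2 list.

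The genes whose pattern over the 6 libraries was most like that of each member were found by the root mean square distance between centred log2 CPM, among 9235 genes of at least 10 CPM. For AKR1C1 these were PLIN2, a coat protein of lipid droplets, at a distance of 0.07 on the log2 scale, then PTGR1 at 0.09 and AREG, the growth factor amphiregulin, at 0.10. For AKR1C2 they were SERPINB1, TRMT61A and VWDE, at 0.09 each, and for AKR1C3 PIK3CA at 0.04, NAA20 and ATG2B, each at 0.06. AKR7A2 was followed most closely by EPHB3, an ephrin receptor, at 0.04, SSBP4 at 0.04 and the inositol transporter SLC5A3 at 0.05. The nearest genes to AKR1A1 were SNRPD3, NewGene_8413 (a locus without a symbol) and NCLN, at 0.03 each. Those to AKR1B1 were C7orf43 at 0.04, GCNT3 and CDC40, each at 0.05, and those to AKR1B10 were CCDC127 at 0.04, DBT and DDX56, each at 0.05. No member was among the nearest of another, since members were left out of this search. The distance includes the difference between treatments, so a near gene is one with a similar fold change. PLIN2, PTGR1 and AREG had log2 fold changes of 2.36, 2.13 and 2.14, beside 2.26 for AKR1C1. Shared regulation was not tested.

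**Figure D5:**
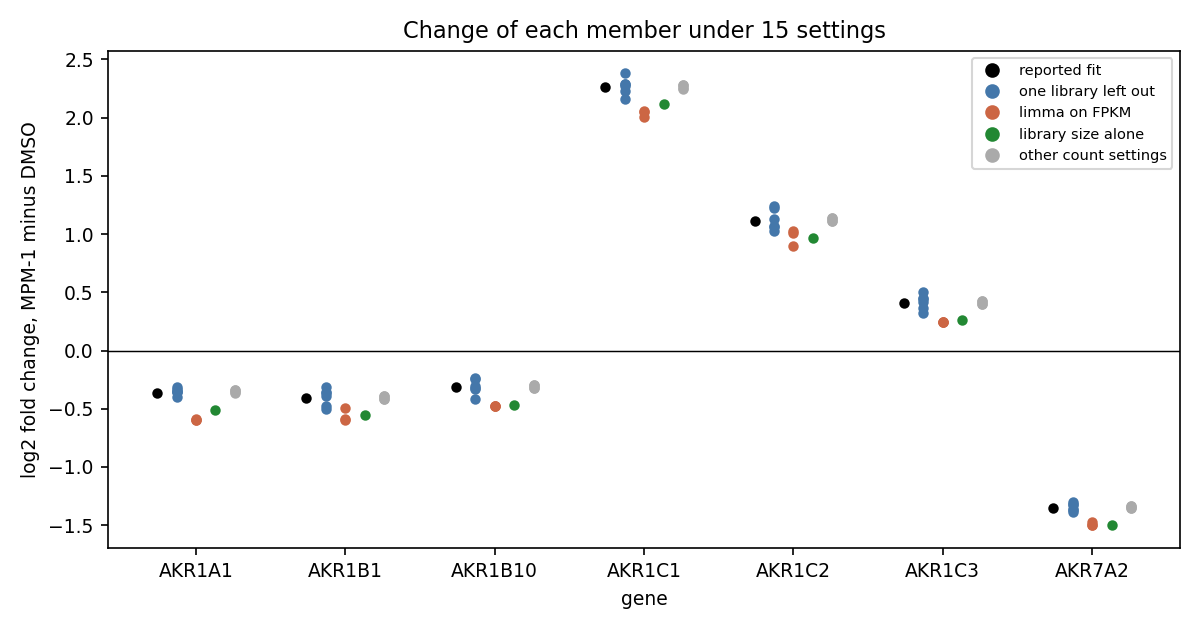
Log2 fold change of each member, MPM-1 minus DMSO, in the reported fit and in 14 other settings, with 1 point per setting. All 7 genes stayed on one side of 0, with AKR1C1 between 2.01 and 2.38, AKR1C2 between 0.89 and 1.24 and AKR7A2 between −1.50 and −1.30.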

How the data were processed

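RNA of SW480 cells treated for 24 h with DMSO or MPM-1 was sequenced by a company, in 3 libraries per treatment. The authors deposited 1 table with whole-number counts per gene and library, without normalization, and with FPKM, scaled by them for length and depth. The submitters' processing notes name HISAT2, DESeq2 and the mouse build mm10, although the cells and gene identifiers are human, and the notes give no versions. The log2 fold changes and FDR values (adjusted p-values) that the authors deposited for the comparison were not used. All per-sample columns entered the work.

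Counts were tested with edgeR 4.0.16 (quasi-likelihood, TMM) in R 4.3.3 on all 12982 genes, with no covariates and Benjamini-Hochberg adjustment. Calls required an adjusted p under 0.01 together with a change of at least 1 on the log2 scale. CPM used TMM library sizes. The common dispersion was 0.0231, and replicates differed by more than counting noise (chi-square of 15.4 to 33.2 per gene). Alternatives were DESeq2 1.42.0, limma 3.58.1 on log2(FPKM + 0.1, 1 or 0.01) with a mean FPKM of at least 1, other scalings, a mean count of at least 50, a replicate block, and leaving out each library. The edgeR fit was tested on simulated data. Members and lists were chosen with earlier results of these data known. All members were named, with up to 3 called genes per list and direction, every listed gene of the other family members, and the 3 genes most like each member. Further list genes, marked in the text or named because a library decided their call, were added after their values were seen. Gene positions and transcripts were from GENCODE 29 (GRCh38), with the longest protein-coding transcript of each gene. Promoters were from RefSeq (GRCh38.p14), in which 6 of the 7 members had an entry.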

Additional observations from a re-analysis of the deposited data

How the results depend on the processing

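All 7 members kept their direction in the 14 alternatives. Scaling by library size alone moved the median over all genes, on the log2 scale, from −0.03 to −0.18. The FPKM settings moved it to between −0.15 and −0.13. The members moved in the same direction. In the FPKM settings some moved by more than the median, such as AKR1A1, which was at −0.36 in the reported fit. By library size alone AKR1A1 was at −0.51, AKR1B10 at −0.46 and AKR7A2 at −1.50. With limma on log2(FPKM + 0.1, 1 and 0.01), in this order, AKR1A1 was at −0.59, −0.59 and −0.60, AKR1B10 at −0.48, −0.47 and −0.48, AKR1C1 at 2.05, 2.01 and 2.05, the sum of AKR1C1 and AKR1C2 at 1.92, 1.89 and 1.92, AKR1C3 at 0.25, 0.24 and 0.25, and AKR7A2 at −1.49, −1.47 and −1.50. AKR1B1 was at −0.59 with 0.1 and −0.60 with 0.01, and AKR1C2 at 0.89 with 1. The members called higher dropped from 2 to 1 by library size alone and on log2(FPKM + 1). List genes called higher dropped from 14 to 9 by library size alone and in each FPKM setting. Over all genes, 725 higher and 1136 lower calls became 537 and 1470 by library size alone. In the FPKM settings 445, 351 and 454 were called higher and 1095, 716 and 1141 lower, with 11497 genes tested.

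Leaving out each library in turn left 674 to 791 genes called higher and 935 to 1181 lower, and put AKR1C1 between 2.16 and 2.38, AKR1C2 between 1.02 and 1.24, AKR1C3 between 0.32 and 0.51, AKR1B10 between −0.42 and −0.24, AKR1B1 between −0.50 and −0.31, AKR1A1 between −0.40 and −0.32 and AKR7A2 between −1.38 and −1.30. The replicate numbers showed no sign of pairing (correlations of same-numbered deviations 0.02, 0.11 and −0.07, and of the others −0.13 to 0.11). Whether the samples were paired by design is not given in the sources used here. With the replicate block, 712 genes were called higher and 1120 lower, and AKR1C1 was at 2.25, AKR1C2 at 1.11 and AKR7A2 at −1.35. Over all settings 57 single-gene values of the lists lost their call, all in the same direction as before. The cause was not tested. AKR1B1 had the fewest counts of the members, 186 to 375 per library, and an SE of 0.17; the part of depth in it was not tested.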
